A study of Gallus gallus with 5 samples.

Results

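The genes described here carry the names of H2A.Z.1 and the replacement histone variants. Such variants are made outside the bulk synthesis of histones in S phase. They take the place of the usual H2A, H3 or H1 in some nucleosomes. The list held 10 genes, H2AFZ, H2AFV, H2AFY, H2AFY2, H2AFX, H2AFJ, H3F3B, H3F3C, CENPA and H1F0. A probe was included when the RefSeq transcript it carries belongs to one of them under its old or current symbol. In all, 25 probes for 9 of the 10 genes were found among 43603 probes, of which 11935 carried a gene name for 5382 genes. No probe was assigned to H2AFV (H2AZ2), the gene of the other H2A.Z form, and the gene table also gives H2AFV as a synonym of H2AFZ.

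RNA came from DT40, a chicken B cell line derived from a bursal lymphoma, and was read on 5 one-colour Agilent arrays with 1 array for each line. The lines were wild-type cells of clone cl18 (WT), cells in which both H2A.Z isoform genes are knocked out (DKO), and 3 complemented lines, in which the DKO stably expresses H2A.Z.1, 5KR-H2A.Z or H2A-H2A.Z. Plots write them as DKO+ and the name of the protein, and the text as the line of that protein. 5KR-H2A.Z and H2A-H2A.Z are mutants of H2A.Z.1, per the design text. All cultures, WT included, were kept with 2 µg/ml tetracycline for 72 hours, which represses an H2A.Z.1 transgene under tetracycline control, and the labels do not say which of the lines carry that transgene. The study's title names what the N-terminal tail contributes as its subject. For the array titled DKO, the description and genotype label repeat the words for the line expressing H2A.Z.1. The name DKO follows its title and source name.

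H2A.Z is exchanged into nucleosomes by the SRCAP and p400 complexes and is known for its place at promoters. MacroH2A carries a large macrodomain and is known from silent chromatin. H3.3 is deposited in active genes by HIRA and in repeats by DAXX with ATRX, CENP-A marks the centromere, H2A.X is phosphorylated beside DNA breaks, and the linker histone H5 is known from avian red cells.

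A level is the log2 of a probe's background-subtracted signal minus the 75th percentile of its array, so that levels of 1 probe can be compared between arrays but not levels of different probes. With 1 array per line there is no replicate check and no test, and every difference describes these arrays. The arrays held between 29137 and 30574 of 43803 spots well above background and none saturated. The DKO array had the fewest, and its 75th percentile, a signal of 1115, was below the 1348 to 1558 of the others. What this adds to its differences was not tested. Probes printed in several spots had a median SD between spots of 0.05 to 0.06 on the log2 scale, which covers the error within an array alone. A gap between arrays was set against 2 times that spot error, about 0.14 to 0.18 on the log2 scale. The error came from 40 to 42 probes per array, whereas each histone variant probe has 1 spot. The same error was used for bright and dim probes, so it may be too small for dim ones. WT, DKO and the H2A.Z.1 line shared slide 1 and its scan, and the arrays of both mutant lines shared slide 2. Line and slide therefore cannot be told apart wherever a mutant line is set against an array of slide 1.

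The labelled cell type was set against its markers. At least 10 of the 11 B cell markers with a probe were well above background on each of the 5 arrays, CD79B, a subunit of the B cell receptor, being among them. Over the 5 arrays their summed linear level ranged from 232.3 to 273.1 times the 75th percentile, that of T cell markers from 65.9 to 83.5, of macrophage markers from 0.97 to 2.29, of erythroid markers from 4.41 to 6.97 and of fibroblast markers from 0.28 to 1.17. These sums come from different probes, so each can be compared between arrays and not with another list's. Nearly all of the T cell sum came from CD3D, a T cell receptor subunit, with levels from 6.04 to 6.38, whereas CD4, MARCO, TAL1, CA2, DCN and PDGFRA were not well above background on any array.

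Of the 25 probes, 21 were well above background on all 5 arrays and 2, for H2AFX and H1F0, on none. A probe was compared between arrays where either showed it well above background. In DKO against WT, 4 of the 22 probes compared reached a 2-fold lower level, 2 of H2AFZ and 2 of H2AFY2, and none a 2-fold higher one. Of all 30964 probes compared, 11.2% reached a 2-fold lower level.

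H2AFZ (NM_001031374), the gene of H2A.Z.1, was far lower in DKO and the 3 complemented lines, together the 4 derived lines, than in WT. On probe A_87_P194348 the level was 6.17 in WT, -0.37 in DKO, -0.31 in the H2A.Z.1 line, -0.20 in the 5KR-H2A.Z line and -0.46 in the H2A-H2A.Z line. On probe A_87_P037084 it was 5.87, 1.11, 0.81, 1.24 and 0.92 in the same order. WT stood apart from the 4 derived lines on both probes, by at least 4.63 on the log2 scale. The derived lines differed from each other by at most 0.43, on A_87_P037084 between the 5KR-H2A.Z and H2A.Z.1 lines, across slides. Within slide 2 the 5KR-H2A.Z line was above the H2A-H2A.Z line, by 0.26 on A_87_P194348 and 0.32 on A_87_P037084. Of all probes, 18.7% and 14.5% were higher by more. That direction held under the 9 alternatives, with sizes from 0.03 to 0.33. In RNA from whole cultures, fewer cells with a transcript and less of it per cell cannot be told apart.

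In DKO the difference from WT was -6.54, or 92.7-fold lower, on A_87_P194348 and -4.75, or 27.0-fold lower, on A_87_P037084. These stood at ranks 3 and 21 from the lowest among all 30964 probes. In the H2A.Z.1 line the same probes were 89.2-fold and 33.4-fold lower than in WT, in the 5KR-H2A.Z line 82.6-fold and 24.8-fold, and in the H2A-H2A.Z line 99.0-fold and 30.8-fold. Both probes read H2AFZ as at least 2-fold lower in each derived line under all 9 alternative ways of processing. Those that only keep marked spots or change the filter on dim probes could not alter these differences.

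Both H2AFZ probes remained well above background in the derived lines. The signal of A_87_P194348 was 104438 in WT and between 862.4 and 1253.3 in the 4 others. That of A_87_P037084 was 85003 in WT and between 2411 and 3182 in the others. The probes thus agreed that a signal was left and gave different sizes for it, with a root mean square distance of 0.67 between their centred levels.

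Between DKO and the H2A.Z.1 line the H2AFZ probes went opposite ways under the processing used. The difference of the H2A.Z.1 line from DKO was 0.06 on A_87_P194348, within 2 times the spot error, and -0.31 on A_87_P037084, beyond it. The signs depended on the scaling. In the same order the differences were 0.61 and 0.24 with spike-in scaling, and -0.09 and -0.45 with median centring. The sources used here do not say whether these probes can bind the RNA of the H2A.Z.1 transgene or of its mutants. H2AFZ therefore checks the labels of WT against the 4 derived lines, and does not settle the conflict in the labels of the DKO array.

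**Figure D1:**
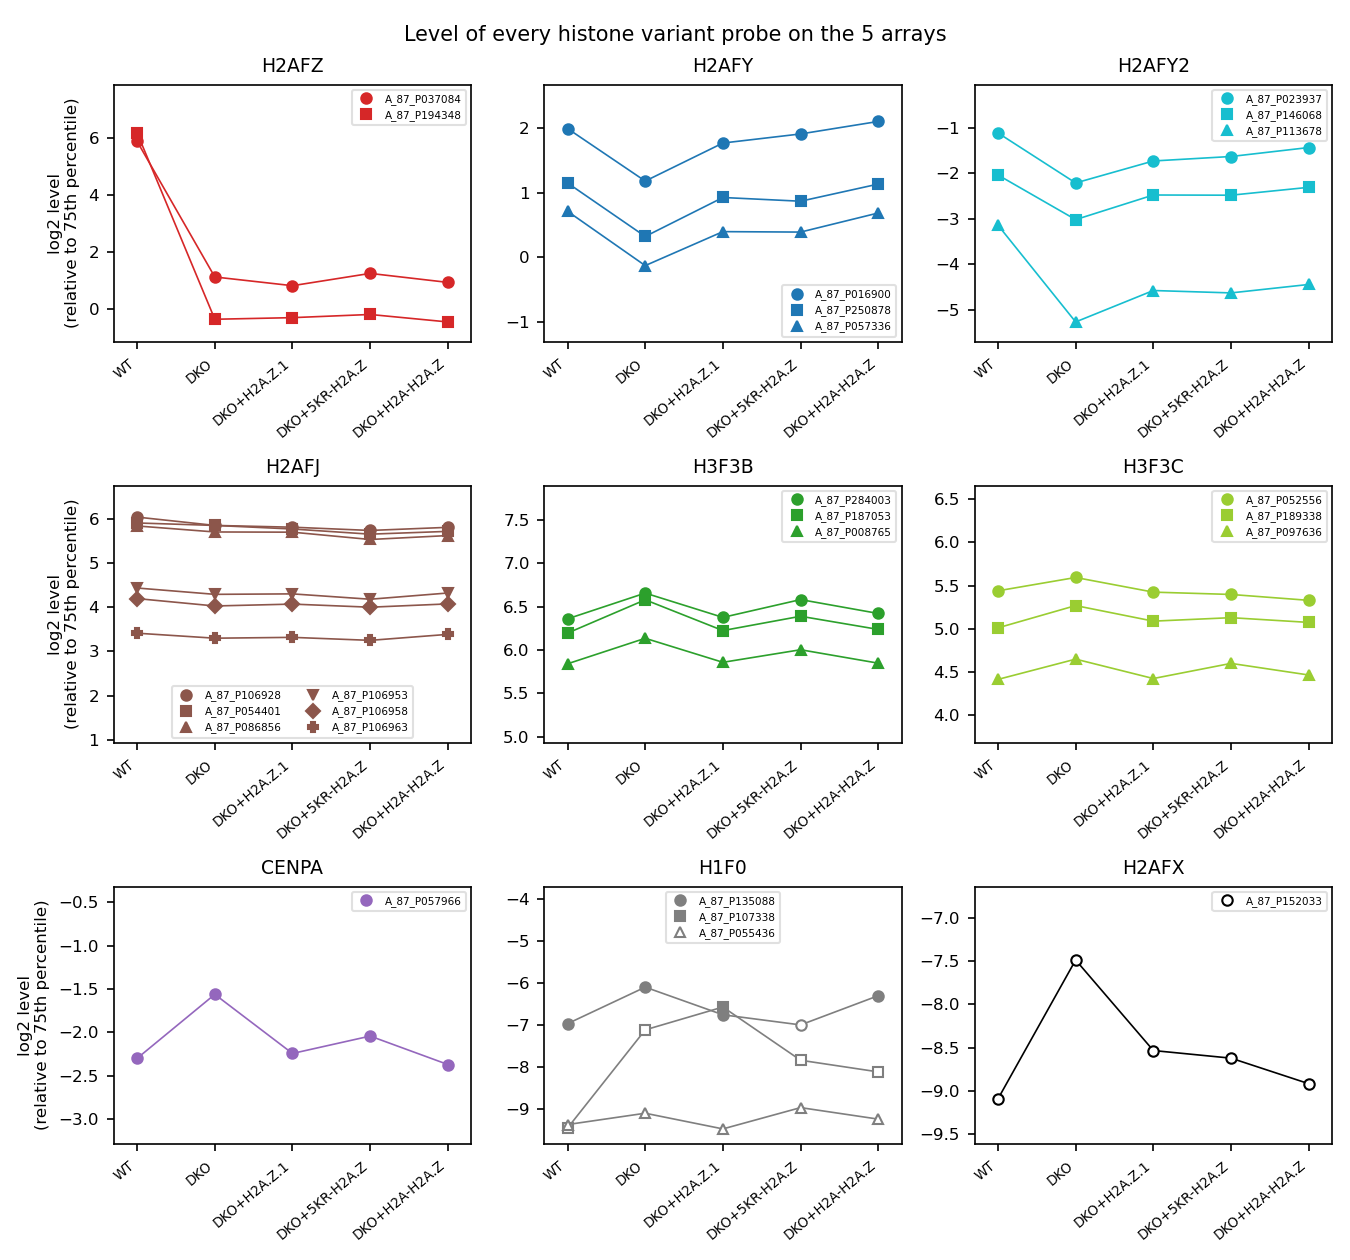
Level of each probe on each array, as log2 signal relative to the array's 75th percentile, with 1 panel per gene, its own vertical scale and 1 line per probe. Filled points are well above background and open points are not. H2AFZ is high in WT alone, the 6 H2AFY and H2AFY2 probes dip in DKO, and H2AFJ, H3F3B and H3F3C vary by less than 0.39 on the log2 scale.

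All 6 probes of the macroH2A genes were lower in DKO than in WT and higher again in each complemented line. H2AFY (NM_205007) encodes macroH2A1 and H2AFY2 (NM_001277338) encodes macroH2A2. Each of the 6 probes passed 1.5-fold on the low side between DKO and WT, as did 19.2% of all probes. That share depends on brightness. With all probes split into 4 equal bins by mean level, it was 6.36% in the brightest bin, which holds H2AFY probe A_87_P016900. It was 17.6% in the next bin, with the other H2AFY probes and H2AFY2 probe A_87_P023937, and 23.9% in the one after, with the remaining H2AFY2 probes.

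H2AFY probe A_87_P016900 had levels of 1.99 in WT, 1.18 in DKO, 1.77 in the H2A.Z.1 line, 1.91 in the 5KR-H2A.Z line and 2.10 in the H2A-H2A.Z line. Probe A_87_P250878 gave 1.15, 0.32, 0.92, 0.87 and 1.13, and probe A_87_P057336 gave 0.71, -0.13, 0.39, 0.39 and 0.68. DKO was the lowest array on all 3 H2AFY probes, and its gap to the next, 0.52 to 0.59, was more than 2 times the spot error. WT and the H2A-H2A.Z line were the upper pair on every H2AFY probe and lay within 2 times the spot error of each other.

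The difference between DKO and WT was -0.81, -0.83 and -0.84 on the 3 H2AFY probes, 1.76-fold to 1.79-fold lower, so none reached 2-fold. Probes of H2AFY differed little in pattern, with distances of 0.03 to 0.08 between their centred levels. Of all probes, 14.2% were lower in DKO by more than A_87_P016900, and 4.12% of those in its own bin of brightness. For A_87_P250878 and A_87_P057336 the shares were 13.9% and 13.7% of all probes, and 12.4% and 12.2% of their own bin.

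H2AFY2 probe A_87_P023937 had levels of -1.11 in WT, -2.21 in DKO, -1.73 in the H2A.Z.1 line, -1.63 in the 5KR-H2A.Z line and -1.43 in the H2A-H2A.Z line. Probe A_87_P146068 gave -2.04, -3.02, -2.48, -2.48 and -2.31, and probe A_87_P113678 gave -3.14, -5.27, -4.58, -4.63 and -4.44. WT was the highest and DKO the lowest array on all 3 H2AFY2 probes, and both stood off from their neighbours by more than 2 times the spot error.

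In DKO, H2AFY2 stood below its WT level by 2.14-fold, 1.97-fold and 4.37-fold on these probes. The probes shared the direction and not the size. A_87_P113678 differed from each of the others by 0.39 to 0.43 in root mean square distance, and the others from each other by 0.06. After normexp background correction no H2AFY2 probe was 2-fold lower in DKO, as given with the alternatives.

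On the macroH2A probes the complemented lines lay between DKO and WT to different degrees, except that H2AFY probe A_87_P016900 was above WT in the H2A-H2A.Z line. Set on a log2 scale from 0 at DKO to 1 at WT, the 3 H2AFY probes stood at 0.63 to 0.73 in the H2A.Z.1 line, 0.62 to 0.90 in the 5KR-H2A.Z line and 0.97 to 1.14 in the H2A-H2A.Z line. The 3 H2AFY2 probes stood at 0.32 to 0.55, 0.30 to 0.55 and 0.39 to 0.72 in the same lines. The median position of H2AFY2 was below that of H2AFY in each line, under the processing used and the 9 alternatives. Among these, keeping marked spots or changing the filter on dim probes left every position unchanged. With normexp background correction the probes of both genes overlapped in both mutant lines. For comparison, the median position of the 4509 probes that passed 1.5-fold in this direction and were well above background on all arrays was 0.81, 0.65 and 0.90.

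**Figure D2:**
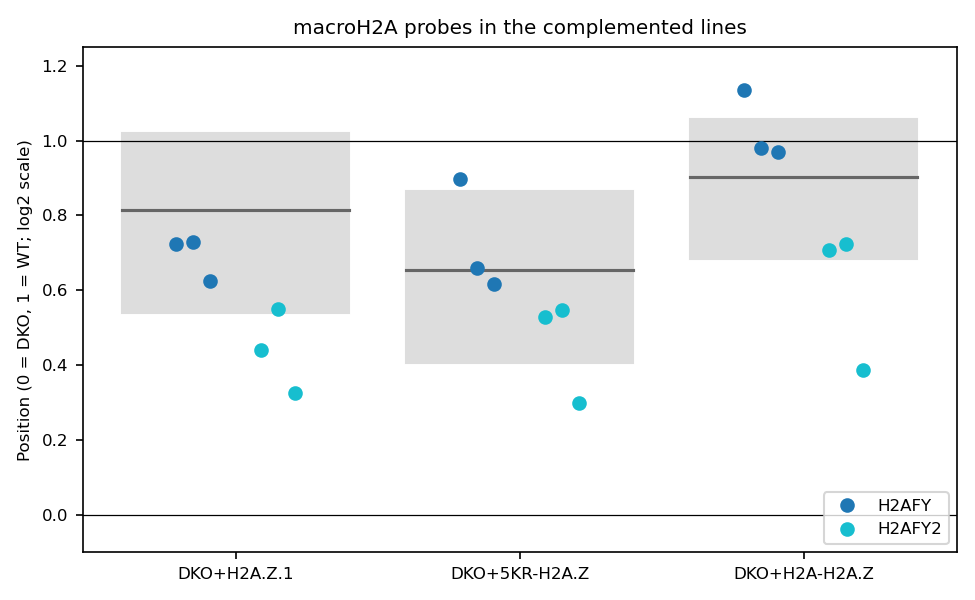
Position of the 3 H2AFY and 3 H2AFY2 probes in each complemented line on the log2 scale, where 0 is the level in DKO and 1 the level in WT. Grey boxes span the middle 50% and grey lines the median of the 4509 probes that passed 1.5-fold on the low side between DKO and WT. H2AFY lies near or within the boxes in all 3 lines. H2AFY2 sits lower than H2AFY in each, with some probes inside the box and some below it.

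Against DKO, all 6 macroH2A probes were higher in the H2A.Z.1 line by 0.48 to 0.69, in the 5KR-H2A.Z line by 0.52 to 0.73 and in the H2A-H2A.Z line by 0.71 to 0.92 on the log2 scale. H2AFY probe A_87_P016900 was higher by 0.59, 0.73 and 0.92 in these lines. Of all probes, 16.0%, 11.4% and 11.2% were higher by more. None of the histone variant probes reached 2-fold in these comparisons, 0 of 23 for the H2A.Z.1 line, 0 of 22 for the 5KR-H2A.Z line and 0 of 22 for the H2A-H2A.Z line. Of all probes, 11.4%, 8.71% and 14.2% were at least 2-fold apart either way. The comparisons with DKO share the DKO array with the comparison of DKO and WT, so a low reading on that array enters all of them.

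Against WT, 3 of 23 histone variant probes were at least 2-fold lower in the H2A.Z.1 line, where 3.58% of all probes were. The counts were 3 of 22 in the 5KR-H2A.Z line, with 3.46% of all probes, and 3 of 22 in the H2A-H2A.Z line, with 2.92%. In each line the 3 were both H2AFZ probes and the H2AFY2 probe A_87_P113678. With normexp background correction A_87_P113678 was short of 2-fold, at -0.87, -0.78 and -0.78 in the 3 lines, which left the H2AFZ probes. Under the processing used, that H2AFY2 probe was lower than in WT by 1.44, 1.49 and 1.30 on the log2 scale in the 3 lines, whereas the other H2AFY2 probes were lower by 0.27 to 0.62.

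The arrays of both mutant lines share a slide and could be compared within it. All 6 macroH2A probes were lower in the 5KR-H2A.Z line than in the H2A-H2A.Z line, by 0.17 to 0.30 on the log2 scale. H2AFY probe A_87_P016900 was at -0.19. Of all probes, 21.4% were lower by more, and 11.9% of those in its own bin of brightness. The lower macroH2A level in the 5KR-H2A.Z line held for all 6 probes under each of the 9 alternatives, with sizes from 0.01 to 0.53. Keeping marked spots or changing the filter on dim probes could not alter it. Across slides, all 6 macroH2A probes were higher in the H2A-H2A.Z line than in the H2A.Z.1 line, by 0.13 to 0.33. On A_87_P016900 this was 0.33, and 14.4% of all probes were higher by more. On the macroH2A probes the 5KR-H2A.Z line differed from the H2A.Z.1 line by -0.06 to 0.14, and 4 of 6 were lower in the 5KR-H2A.Z line.

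Between the complemented lines few histone variant probes were 2-fold apart. None of 23 was between the 5KR-H2A.Z line and the H2A.Z.1 line, where 2.59% of all probes were. Between the H2A-H2A.Z line and the H2A.Z.1 line it was 1 of 23, the H1F0 probe A_87_P107338, against 3.29% of all probes. Between the 5KR-H2A.Z line and the H2A-H2A.Z line it was 0 of 22 against 3.8%.

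**Figure D3:**
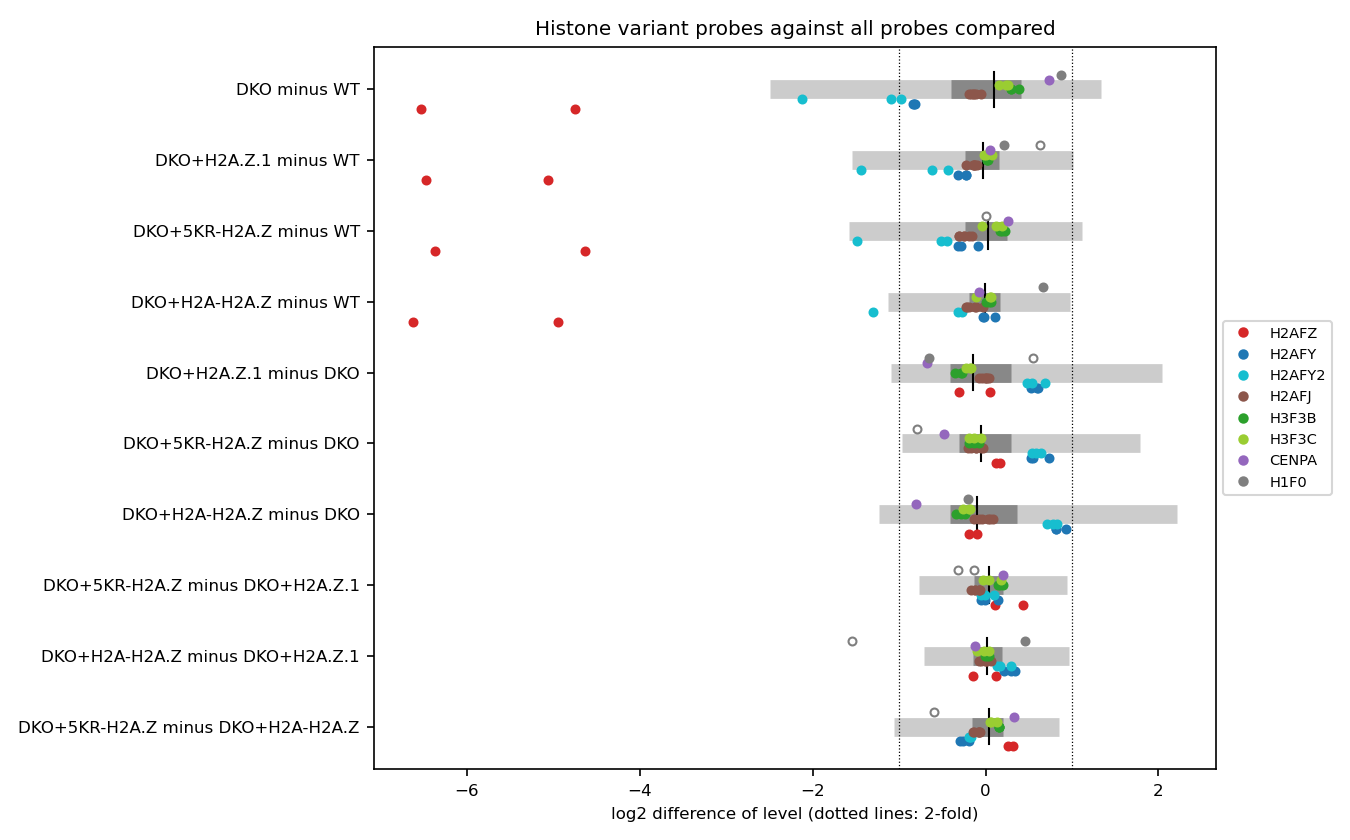
Log2 difference of each histone variant probe in the 10 comparisons, coloured by gene and spread vertically by gene for legibility. Light bars span the central 95% and dark bars the middle 50% of all probes compared, black ticks are their median, and open circles are bounds. The H2AFZ probes lie beyond -4.5 in each derived line against WT, and the H2AFY and H2AFY2 probes lie left of the median in DKO minus WT and right of it in all 3 lines minus DKO.

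The H3.3 genes were among the brightest probes and differed little between arrays. H3F3B (NM_205296) encodes H3.3, and H3F3C (NM_001031482) is a gene that the table also lists as H3F3A. The H3F3B probe A_87_P187053 had levels of 6.20 in WT, 6.58 in DKO, 6.22 in the H2A.Z.1 line, 6.39 in the 5KR-H2A.Z line and 6.24 in the H2A-H2A.Z line. The H3F3C probe A_87_P189338 gave 5.01, 5.27, 5.09, 5.13 and 5.07. DKO was the highest array on all 6 H3.3 probes, but on 5 of them its gap to the next array was within 2 times the spot error.

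In DKO against WT, the 3 H3F3B probes were higher by 0.29 to 0.38 and the 3 H3F3C probes by 0.15 to 0.26 on the log2 scale, at most 1.31-fold. The median of all 6, 0.28, was close to the 0.25 of all probes in the brightest bin. The direction depended on the scaling. After scaling to spike-in probes, H3F3B was lower in DKO by 0.11 to 0.20 and H3F3C by 0.24 to 0.34. After quantile normalization or cyclic loess, H3F3C was lower by 0.03 to 0.16 and the H3F3B probes had both signs.

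H2AFJ (NM_001030753) carries the name of H2A.J, a variant known in mammals from senescent and secretory cells. The 6 probes of H2AFJ varied by 0.16 to 0.31 on the log2 scale over the 5 arrays, less than the median of 0.57 over 27801 probes. That median covers probes of all brightness, and bright probes such as these differed less. Between DKO and WT, 5.09% of the brightest bin were 2-fold apart, and 24.8% of the dimmest. Probe A_87_P106928 gave 6.04 in WT, 5.86 in DKO, 5.82 in the H2A.Z.1 line, 5.81 in the H2A-H2A.Z line and 5.74 in the 5KR-H2A.Z line. WT was the highest and the 5KR-H2A.Z line the lowest array on all 6 probes. The gap from WT to the next array was more than 2 times the spot error on A_87_P106928 alone. That of the 5KR-H2A.Z line to its neighbour was within it on every probe.

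H2AFJ was lower in DKO than in WT by 0.06 to 0.19 on its 6 probes. With arrays centred on their median the difference ran from -0.01 to 0.12, and with spike-in scaling from -0.69 to -0.55, so neither sign nor size was stable. The gene table gives HIST1H2A9 as a synonym of H2AFJ and places it between HIST2H4B and HIST1H2B7. It thus stands among histone genes with near-identical copies, and its probes may read more than 1 of them. Whether this chicken gene is a replacement variant or a replication-coupled H2A gene was not tested.

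CENPA (NM_001101037), the centromeric H3 variant, was read by 1 probe, A_87_P057966. Its level was -2.30 in WT, -1.56 in DKO, -2.24 in the H2A.Z.1 line, -2.04 in the 5KR-H2A.Z line and -2.37 in the H2A-H2A.Z line. DKO was the highest, and its gap of 0.48 to the 5KR-H2A.Z line was more than 2 times the spot error. WT, the H2A.Z.1 line and the H2A-H2A.Z line lay within that error of each other.

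CENPA was 1.67-fold higher in DKO than in WT, and 8.57% of all probes were higher in DKO by more. Against DKO it was lower by 0.68 in the H2A.Z.1 line, by 0.48 in the 5KR-H2A.Z line and by 0.81 in the H2A-H2A.Z line on the log2 scale. The difference between DKO and WT ran from 0.24 with spike-in scaling to 0.92 with median centring, and CENPA kept this direction under all 9 alternatives. Keeping marked spots or changing the filter on dim probes could not alter it.

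**Figure D4:**
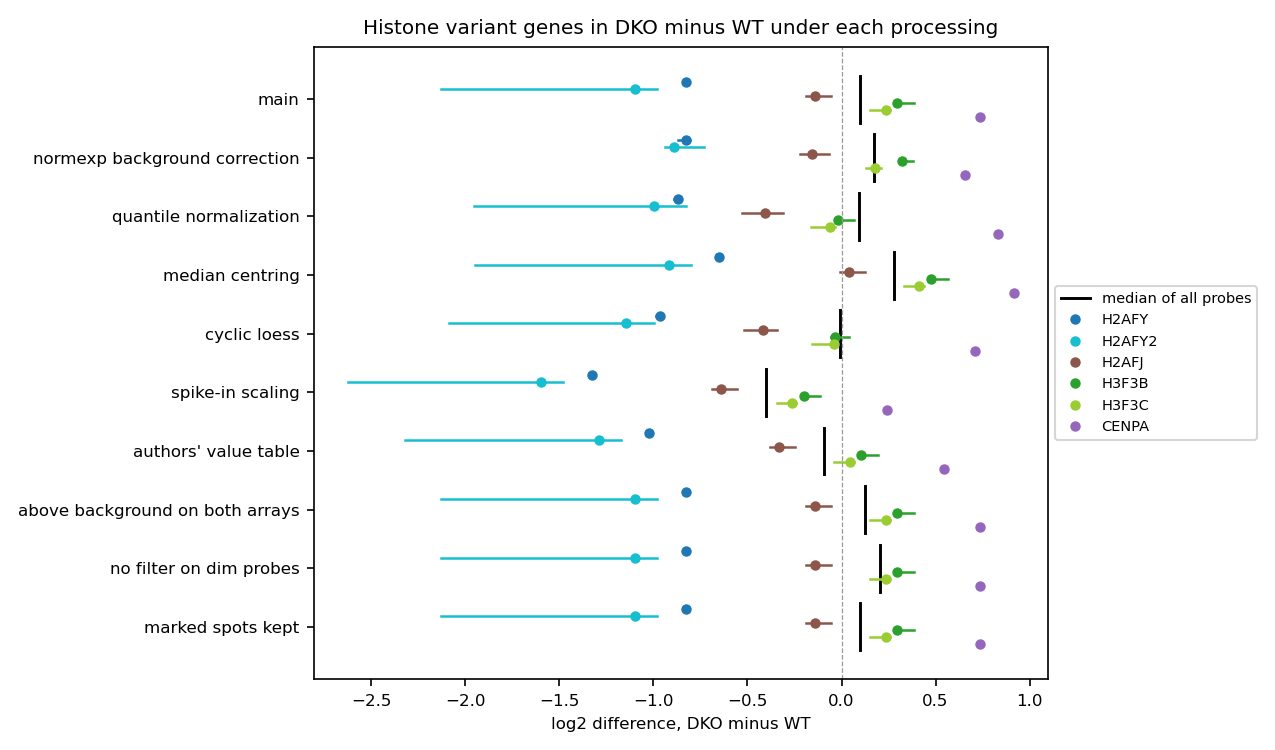
Log2 difference between DKO and WT for 6 genes under the processing used and 9 alternatives, where points are the median and lines the range over a gene's probes, and black bars the median of all probes. H2AFY and H2AFY2 lie left of 0 and CENPA right of it in every row, whereas H3F3B, H3F3C and H2AFJ cross 0 with the scaling.

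H1F0 (NM_001044673), which the gene table also lists as H5, was at or near background. Probe A_87_P135088 had levels of -6.97 in WT, -6.10 in DKO, -6.76 in the H2A.Z.1 line and -6.30 in the H2A-H2A.Z line, and was not well above background in the 5KR-H2A.Z line. It was 1.83-fold higher in DKO than in WT, with signals of only 16.3 and 11.6. The log2 difference ran from 0.37 with spike-in scaling to 1.175 with quantile normalization. It passed 2-fold under 2 of the 9 alternatives. Probe A_87_P107338 was well above background in the H2A.Z.1 line alone, at -6.57, and probe A_87_P055436 on no array.

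A fold with a probe below background on either array can be given only as a bound, taken against the higher of its own level and the lowest level well above background on that array. On A_87_P107338, this gave H1F0 as 2.92-fold lower in the H2A-H2A.Z line than in the H2A.Z.1 line. Its own level of -8.12 was used, above the lowest of -8.27, so this is the measured fold and no firm limit. With normexp background correction the difference was -0.07, and A_87_P135088 went the other way, 1.37-fold higher in the H2A-H2A.Z line. The H1F0 probes thus shared no direction in this comparison. They also went opposite ways in the H2A.Z.1 line against DKO, by -0.66 and 0.54 on the log2 scale. Under the processing used, both probes compared were higher in the H2A.Z.1 line than in WT, by 0.21 and 0.63. Both were lower in the 5KR-H2A.Z line than in the H2A.Z.1 line, at -0.14 and -0.32. Each of these comparisons holds a probe below background on 1 array. Of 7 erythroid markers with a probe, 4 were measured in DKO against WT, with a median difference of -0.20. ALAS2 and the globin gene HBAD were higher, and the globin genes HBAA and HBBA lower by 0.52 and 0.69 on the log2 scale. With normexp background correction all 4 were higher, with a median of 0.09, so the globin direction depended on the processing. HBAA and HBBA were dim, at -5.41 and -5.70 in WT and -5.93 and -6.38 in DKO. ALAS2, the heme synthesis enzyme of red cells, was brightest, with levels of 2.08 in WT, 2.76 in DKO and 2.13 to 2.22 in the complemented lines. Their part in the H1F0 readings was not tested.

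H2AFX (XM_004947917), which encodes the variant phosphorylated at DNA breaks, had 1 probe, A_87_P152033. It was not well above background on any of the 5 arrays, so H2AFX has no measured difference here.

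Named genes outside the list with the most similar pattern were sought for each probe that was 2-fold apart between any arrays and well above background on all 5. Likeness was the root mean square distance between centred log2 levels over the 5 arrays, among 4114 named genes. For both H2AFZ probes the nearest were COL20A1, DCX and EPGN, at 0.78, 0.81 and 1.04 from A_87_P037084 and 1.22, 1.45 and 1.62 from A_87_P194348. These distances are larger than that between the H2AFZ probes, so no named gene followed H2AFZ closely. For H2AFY2 probe A_87_P023937 the nearest were MED30 at 0.05, RPE65 at 0.06 and MPHOSPH6 at 0.06. For A_87_P113678 they were NTPCR at 0.13, CCDC167 at 0.21 and GSDMA at 0.21. Within 0.5, a wider distance than these, lay 12657 of 18805 unnamed probes for A_87_P023937 and 1401 for A_87_P113678.

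Genes that deposit, modify or accompany the variants were read on their brightest probe, with the same limit on dim probes as above. Over all 4391 genes read so, 10.1% passed 2-fold on the low side and 3.96% on the high side between DKO and WT, and the median difference was 0.15. Of the 20 genes listed for H2A.Z exchange 9 were measured. ING3, a subunit of the TIP60 acetyltransferase complex that contains p400, was 2.64-fold lower in DKO, and the other 8 were under 2-fold. ING3 had levels of -1.68 in WT, -3.09 in DKO, -2.12 in the H2A.Z.1 line, -2.45 in the 5KR-H2A.Z line and -1.86 in the H2A-H2A.Z line. DKO was again the lowest, and ING3 was 2.34-fold higher in the H2A-H2A.Z line than in DKO. The median of the 9 genes was -0.03, and ANP32E, the chaperone that removes H2A.Z, was higher in DKO by 0.42. After spike-in scaling that median was -0.53, and only 1 of the 9 genes was above 0.

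For H3.3 deposition 5 of 8 listed genes were measured and none was 2-fold apart between DKO and WT, with a median of 0.33 and HIRA at 0.14. The direction depended on the scaling, since that median was 0.08 after cyclic loess and -0.16 after spike-in scaling. For CENP-A deposition and binding 6 of 9 were measured, none was 2-fold apart and the median was -0.08. HJURP, the CENP-A chaperone, was at -0.22 and RBBP7, a histone-binding chaperone, at 0.81. These genes thus gave no 2-fold difference beside the H3.3 genes or CENPA.

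For H2A.X phosphorylation and reading 4 of 12 listed genes were measured. NBN, a subunit of the MRN complex that senses DNA breaks, had levels of -1.21 in WT, -3.64 in DKO, -0.77 in the H2A.Z.1 line, -1.45 in the 5KR-H2A.Z line and -0.58 in the H2A-H2A.Z line. DKO stood below the others on this 1 probe, by 4.56-fold to 8.31-fold. ATM and PRKDC, kinases that phosphorylate H2A.X, were at -0.13 and -0.14 in DKO against WT, and BRCA1 at 0.33.

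Among general histone chaperones 8 of 13 were measured and all 8 were above 0 in DKO against WT, with a median of 0.30, where 60.8% of all genes were above 0. The direction depended on the scaling, since 4 of the 8 were above 0 after quantile normalization or cyclic loess and 2 after spike-in scaling. Only SPTY2D1, an H3-H4 chaperone, was 2-fold higher, by 2.31-fold on its brightest probe and at least 2-fold on 2 of its 2 probes. Its levels were -0.96 in WT, 0.25 in DKO, -0.56 in the H2A.Z.1 line, -0.46 in the 5KR-H2A.Z line and -0.86 in the H2A-H2A.Z line. DKO was the highest array for SPTY2D1. With spike-in scaling the median of all probes fell from 0.10 to -0.40, and the same shift leaves SPTY2D1 short of 2-fold.

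The replication-coupled histones gave no 2-fold difference. Of 29 listed genes 7 were measured, among them HIST1H2A4, HIST1H2B8 and HIST2H4B, and none was 2-fold apart in any of the 10 comparisons. Their median was -0.02 in DKO against WT, with 5 lower and 2 higher. Of the 8 genes listed for histone mRNA processing 2 were measured, SLBP at 0.03 and ERI1 at -0.24. Probes of replication-coupled histones may read near-identical copies.

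**Figure D5:**
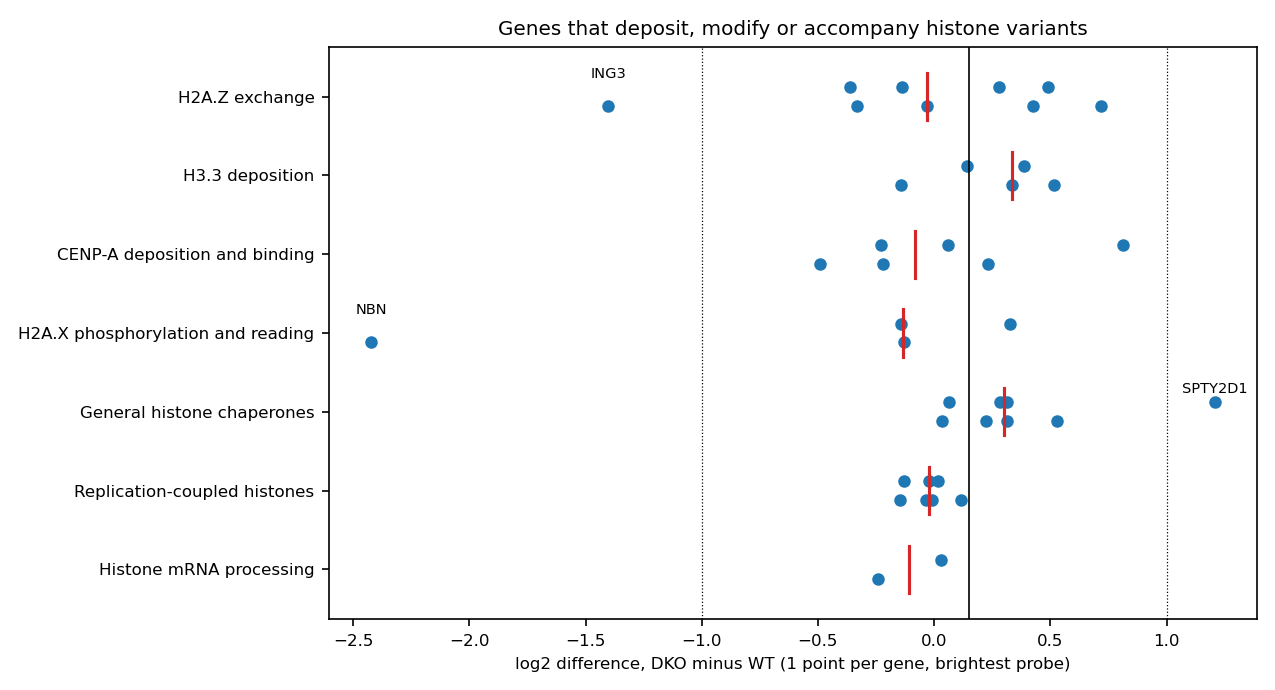
Log2 difference between DKO and WT of the measured genes in 7 lists, with 1 point per gene read on its brightest probe. Red ticks are list medians, the black line is the median of all 4391 genes at 0.15, and dotted lines mark 2-fold. ING3 and NBN lie past 2-fold on the low side and SPTY2D1 on the high side, and all other listed genes lie between.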

How the data were processed

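Per the labels' protocols, 100 ng of total RNA from each culture was labelled with Cy3 and hybridised to a one-colour array. The scanner software was Agilent Feature Extraction, version 11.5.1.1 (per the file headers). Each spot's deposited processed signal is a linear fluorescence intensity with background subtracted. In the authors' value table the intensity equals that signal times 1 constant per array, 1.03 to 1.23, neither logged nor centred (column medians 92.1 to 121.7). The sources used here do not say how that constant was set.

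The log2 processed signal minus the 75th percentile of the non-control spots of each array was used. Between 2 and 37 marked spots per array were left out. Probes were named through their RefSeq accession and a gene table of assembly GRCg7b. The files are annotated on galGal3, so no coordinates are given, and 1125 probes with a RefSeq accession had no match. A probe was compared where either array of a pair showed it well above background.

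The members and gene lists were chosen with earlier results of these data known. All member probes are named. From each list, genes past 2-fold on their brightest probe were to be named. Other listed genes in the text were picked after their values were seen. With 1 array per line, which limits the precision, no test was made. The steps were tested on simulated data. Alternatives were normexp (offset 50, on median spot and background intensities, since the files used hold no mean signal), quantile normalization, median centring, cyclic loess, scaling to 8 spike-in probes, the authors' value table, other filters on dim probes, marked spots kept, and thresholds of 1.5-fold and 3-fold. Python 3.11.15, numpy 2.4.6, pandas 2.3.3, R 4.3.3 and limma 3.58.1 were used.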

Additional observations from a re-analysis of the deposited data

How the results depend on the processing

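No paired analysis was possible because each line was measured on 1 array, so the shared replicate number 1 marks no pair. The median of all probes in DKO minus WT was 0.10, and it was 0.28 with median centring, -0.01 with cyclic loess, -0.10 in the authors' value table and -0.40 with spike-in scaling. The share of lower among 2-fold calls was 73.0%, and it was 57.7% with median centring, 84.5% in the value table and 93.6% with spike-in scaling. The count of histone variant probes at least 2-fold apart in DKO minus WT, 4, became 2 with normexp, 8 with spike-in scaling, 8 in the value table and 10 at 1.5-fold. The count of 3 in the H2A.Z.1 line minus WT became 5 at 1.5-fold. With no filter, H1F0 probe A_87_P107338 also passed 2-fold there, at 2.89. Not every change of a count is given here. The count of 0 in the H2A.Z.1 line minus DKO became 7 with spike-in scaling, 1 with no filter and 5 at 1.5-fold, and that in the 5KR-H2A.Z line minus DKO became 1, 1 and 3. In the H2A-H2A.Z line minus DKO the count of 0 became 1 with quantile normalization, median centring or cyclic loess, 6 with spike-in scaling, 4 in the value table, 2 with no filter and 7 at 1.5-fold. In the 5KR-H2A.Z line minus the H2A.Z.1 line it became 1 with no filter, and in the 5KR-H2A.Z line minus the H2A-H2A.Z line 1 at 1.5-fold. The count of 1 in the H2A-H2A.Z line minus the H2A.Z.1 line became 0 with normexp, at 3-fold, and when both arrays had to be above background. In DKO minus WT, H2AFY probes A_87_P016900, A_87_P250878 and A_87_P057336 passed 2-fold with spike-in scaling (-1.31, -1.33 and -1.34) and in the value table (-1.01, -1.02 and -1.03), as did H2AFY2 probe A_87_P146068 (-1.48 and -1.17). H2AFY2 probe A_87_P023937 fell short of 2-fold with normexp (-0.889), quantile normalization (-0.998) and median centring (-0.920), and A_87_P113678 with normexp (-0.939). The causes were not tested. No value past 2-fold changed sign. Depth limits the H1F0 and H2AFX probes, which lay at or under background.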

Other observations

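One probe with no gene name, A_87_P011595, followed the H2AFZ probe A_87_P037084 more closely than any named gene. Its level was -0.55 in WT, -5.82 in DKO, -6.06 in the H2A.Z.1 line, -5.80 in the 5KR-H2A.Z line and -5.57 in the H2A-H2A.Z line. In the derived lines the lowest levels well above background were -8.27 to -6.89, so this probe was dim there and its drop is loosely sized. Its distance from A_87_P037084 was 0.25, and it was the single one of 18805 unnamed probes within 0.5 of it. What this probe reads was not tested.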
